A study of Drosophila melanogaster with 47 samples.

Results

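The 8 libraries described here are RNA sequencing libraries of whole midguts of adult female Drosophila melanogaster carrying esg-Gal4, 4 from mated and 4 from unmated flies. They are 8 of the 47 samples of the series and are those that the sample labels give as esg-Gal4 whole guts, taken with all 10635 annotated genes of their count table. The genotype label of both groups is esg-Gal4, a driver active in the stem cells and undifferentiated daughters of the gut, and no further allele is given. Mated females had lived for 48 h with an equal number of males, and unmated females, matched to them in age and genotype, had been kept from males since they emerged as adults. The age itself is not given in the sources used here. Each library was a pool of 15 guts, so the spread between libraries is a spread between pools, and p-values measure only that spread. Further libraries of 2 kinds serve for comparison, each with 4 mated and 4 unmated libraries after 48 h with or without males. One is esg-positive progenitor cells sorted from 100 to 150 esg-Gal4 guts a library. The other is control guts of Actin-Gal4, a ubiquitous driver without the RNAi construct against the ecdysone receptor, from virgins aged 5 days at 29 °C and then mated at 25 °C.

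The fly midgut is a tube of absorptive enterocytes, hormone-secreting enteroendocrine cells and dividing progenitors, wrapped in visceral muscle. Enterocytes secrete the proteases, amylases, maltases and lipases that break down food, and take up sugars, amino acids, sterols and fatty acids. Mating is known to enlarge the female midgut and to change its lipid metabolism through hormonal signals, which serves egg production.

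Total counts ran from 17005386 to 24538084 over the mated libraries and from 13718418 to 22350830 over the unmated ones. Levels are given as CPM, that is counts per 1000000 counts of a library, after scaling by the trimmed mean of M values, and a log2 fold change is always mated minus unmated. A gene was called when its p-value from edgeR's quasi-likelihood test, adjusted by the Benjamini-Hochberg method over all 8833 genes tested, was under 0.05, and every adjusted p below is of this kind. The enterocyte markers summed to 4938 to 6421 CPM in mated and 5369 to 6315 CPM in unmated libraries, and none of the 12 was at 0. On the first principal component, mated library 3 lay at 8.96, nearer to the unmated libraries at 12.5 to 26.9 than to the other mated libraries at -31.2 to -22.7. The esg-Gal4 and Actin control guts disagreed in direction: all 55 genes called in both had opposite signs, and none the same. Directions below rest on the deposited labels of mated and unmated libraries. Genotype, temperature, any mix-up of labels and anything else that differed between these separately counted experiments cannot be told apart. Sorted progenitors share the driver genotype with the whole guts. Of the genes called in both of these, 122 had opposite signs and 46 the same.

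In mated guts, most Jonah proteases, a family of digestive serine proteases, fell, and of 14 trypsins 5 fell and 1 rose. Maltases and several detoxifying enzymes rose, and short contractile muscle genes fell. Between mated and unmated guts 197 genes rose, which is 2.23% of those tested, and 179 fell, which is 2.03%, so that 4.26% were called in all. The median log2 fold change over all tested genes was 0.02. Before adjustment, p was under 0.05 for 807 higher and 648 lower genes of the 8833. DESeq2, run without the filter on low counts, called 328 higher and 346 lower of 10614 genes. Its counts for lists can include members that edgeR did not test. The gene lists below were chosen with earlier results of these data known. The 2 groups of libraries did not overlap for 1012 genes, 11.5% of those tested, of which 529 lay above (5.99%) and 483 below (5.47%) in mated guts. Changes over 2-fold made up 79 of the called rises and 88 of the called falls, and changes over 4-fold 15 and 14. The genes with the highest counts were among those that fell. All genes that fell together held 29.1% to 33.3% of all counts in each unmated library and 14.6% to 15.8% in each mated library, while genes that rose held 2.40% to 3.30% and 5.89% to 7.95%. With upper quartile scaling the split was 143 higher and 221 lower. The count of rises dropped to 95, 130, 74 and 83 without mated library 4, unmated library 1, unmated library 3 and unmated library 4, and that of falls to 107 without mated library 4. Without mated library 3, 274 rose and 236 fell. Of the 376 called genes, 102 share exon positions with another gene on either strand, among them Amyrel, tobi, Mal-A1, Cyp28d1, Lsd-1, Lip3 and l(2)efl. The strand setting of the counting is not known here, so reads of these genes cannot be assigned with certainty.

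**Figure D1:**
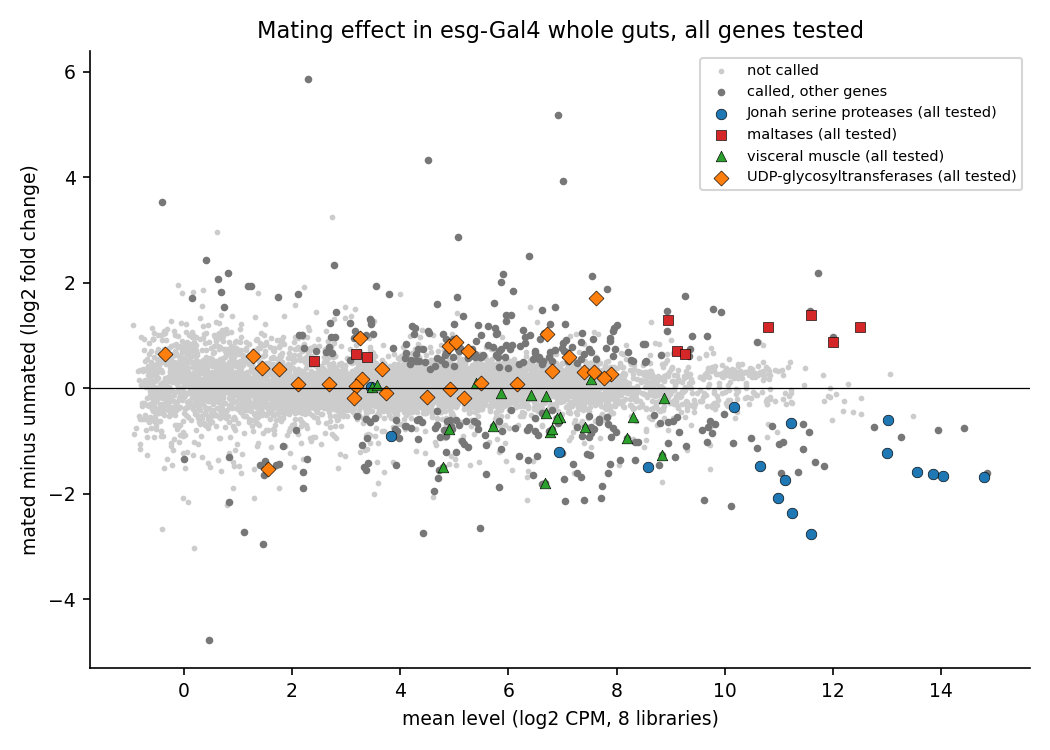
Mated minus unmated log2 fold change (vertical axis) against mean level in log2 CPM over the 8 libraries (horizontal axis), 1 point per tested gene. Coloured symbols are all tested members of 4 gene lists, dark grey points are other called genes. Of the 17 Jonah proteases 16 lie below 0, and all 10 maltases lie above 0.

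The Jonah proteases, secreted chymotrypsin-like serine proteases of the enterocytes, fell as a group. Of 17 tested, 13 fell and 0 rose. Their median log2 fold change was -1.49, and 15 had no overlap of the libraries. Before adjustment p was under 0.05 for 15 lower and 0 higher members, and DESeq2 called the same numbers. With single libraries left out 11 to 12 fell, and in the fit together with Actin control guts 9 fell. Their summed level was 50675 to 56299 CPM in mated and 138622 to 177854 CPM in unmated libraries. In pooled whole guts, fewer cells of a type and less RNA per cell cannot be told apart. Jon65Aiv stood at 13453, 12539, 14573 and 13853 CPM in mated libraries 1 to 4 and at 41521, 49308, 44403 and 38575 CPM in unmated libraries 1 to 4. The mated libraries lay close together and all were far below the lowest unmated one, with a log2 change of -1.68 (SE 0.13, adjusted p = 0.000182). Per kilobase of exon, this gene fell from 48066 to 15049 CPM. Jon25Bii, the member with the largest fold change, measured 759.6, 570.3, 999 and 829 CPM in mated and 4554, 6802, 5672 and 4482 CPM in unmated libraries. The groups were separated widely, and the log2 fold change was -2.77 (SE 0.21, adjusted p = 0.000182). Its neighbour Jon25Bi fell to a similar degree, from 4078 ± 906 to 794 ± 285 CPM (SD, n = 4), by the same test with an adjusted p of 0.00117, and with 0.0584 in a fit together with Actin control guts. Jon65Aiii, Jon99Cii and their relative yip7 changed by -1.67, -1.62 and -1.58 on the log2 scale, with adjusted p-values of 0.000182, 0.000286 and 0.000182. Not all members fell. Jon65Aii read 1571, 912, 534 and 1049 CPM in mated and 1026, 1751, 1408 and 1020.3 CPM in unmated libraries, so that the groups overlapped, and its adjusted p was 0.639. Jon74E and Jon99Ci did not overlap between groups but missed the threshold, with adjusted p-values of 0.0603 and 0.0762. The Jon25B, Jon65A and Jon99C genes are close copies of each other, and how reads shared between copies were counted is not given in the sources used here.

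The trypsins, which cut proteins after lysine and arginine, were divided. Of 14 tested, 5 fell and 1 rose, with a median of -0.33, and the summed level was 27060 to 30807 CPM in mated and 42515 to 63607 CPM in unmated libraries. epsilonTry measured 2200.5, 1770.3, 2002 and 1783 CPM in mated and 5316, 7370.4, 4348 and 4452 CPM in unmated libraries. All mated values lay under the lowest unmated value, with a log2 change of -1.47 (SE 0.18, adjusted p = 0.00227). thetaTry changed by -1.06 (SE 0.18, adjusted p = 0.00819), a call that was lost in the fit together with Actin control guts (adjusted p = 0.169). Try29F went the other way, from 7.48, 13.8, 4.12 and 7.18 CPM in unmated to 50.9, 84.5, 43.1 and 56.3 CPM in mated libraries. The groups were well apart, with a log2 change of 2.86 (SE 0.37, adjusted p = 0.00447), but the gene shares exon positions with another gene on the same strand. The number of trypsins that fell was 2 without mated library 2 or without mated library 4, and 3 in the fit together with Actin control guts. Other proteases with high counts fell too. CG12374, a predicted metallocarboxypeptidase and the gene with the highest mean CPM in these guts, stood at 20942, 10722, 11116 and 15656 CPM in mated and 35915, 56465, 43382 and 41639 CPM in unmated libraries. Its groups did not overlap, and it changed by -1.60 (SE 0.24, adjusted p = 0.00478). Bace, an aspartic protease, fell from 19829 ± 2238 to 11456 ± 969 CPM (SD, n = 4) with an adjusted p of 0.00892.

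**Figure D2:**
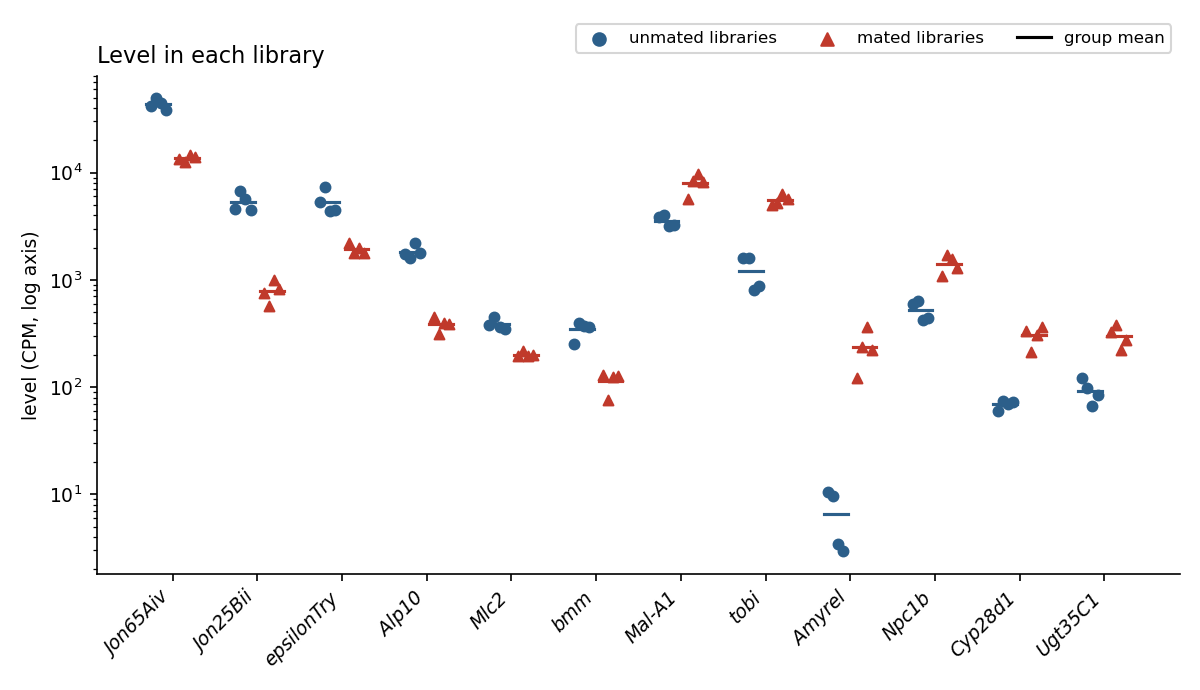
Level of 12 genes in each library in CPM on a log axis, unmated libraries as circles, mated libraries as triangles and the group mean as a bar. Mated and unmated libraries do not overlap for any of the 12 genes, of which 6 are lower and 6 higher in mated guts.

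Carbohydrate digestion moved in the other direction for the enzymes that release glucose from small sugars. Maltases, which split maltose and sucrose, had 5 of 10 members that rose and 0 that fell. All 10 log2 fold changes were above 0, with a median of 0.79. Before adjustment p was under 0.05 for 8 higher and 0 lower members, and DESeq2 called 7 and 0. The count was 3 without unmated library 3 and 3 without unmated library 4. Summed maltase levels were 17971 to 26216 CPM in mated and 8722 to 12423 CPM in unmated libraries. Mal-A1 stood at 5619.6, 8363, 9742 and 8131 CPM in mated and 3836, 4055, 3178 and 3217 CPM in unmated libraries, with mated library 1 the lowest of its group. The groups did not overlap, with a log2 change of 1.16 (SE 0.18, adjusted p = 0.00556). Mal-A7 and Mal-A8 changed by 1.40 (SE 0.21, adjusted p = 0.00517) and 1.16 (SE 0.17, adjusted p = 0.00455). Mal-A4 measured 348, 759, 1175 and 525 CPM in mated and 316, 360.1, 243 and 232 CPM in unmated libraries and was not called, with an adjusted p of 0.0895 and an overlap at mated library 1.

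The glucosidase gene tobi, named as a target of brain insulin and known to respond to dietary sugar and protein, stood at 5042, 5178, 6291 and 5689.5 CPM in mated libraries. In unmated libraries it stood at 1607, 1586, 802 and 868 CPM, lower in libraries 3 and 4 than in 1 and 2. It changed by 2.19 (SE 0.25, adjusted p = 0.0014). Amyrel, a relative of the amylases, had 122, 234, 366 and 221 CPM in mated and 10.4, 9.71, 3.41 and 2.96 CPM in unmated libraries. The spread within groups was large, yet the lowest mated library was more than 10 times the highest unmated one, and the log2 fold change was 5.18 (SE 0.58, adjusted p = 0.00306). The main amylase Amy-p, which cuts starch, showed no such difference. Its levels of 2995, 4278, 7130.4 and 5838 CPM in mated and 3941, 5354, 5427 and 4531 CPM in unmated libraries overlapped, with an adjusted p of 0.926, and its small log2 fold change of 0.07 turned negative without mated library 3 (-0.14), mated library 4 (-0.0035) or unmated library 1 (-0.023).

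Of the lysosomal mannosidases and galactosidases, which trim sugar chains from glycoproteins, 4 of 10 fell and 0 rose, with a median of -0.77. LManII stood at 1162, 1053, 708 and 978 CPM in mated and 2042, 2017, 2383 and 2088 CPM in unmated libraries. Mated library 3 was the lowest, no mated library reached the unmated ones, and the change was -1.13 (SE 0.16, adjusted p = 0.00363). LManI changed by -0.76 (SE 0.10, adjusted p = 0.0031) and LManVI by -1.16 (SE 0.19, adjusted p = 0.00748). For LManVI, mated library 3 was instead the highest of its group.

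Alkaline phosphatases, brush border enzymes that remove phosphate groups, had 3 of 8 members that fell and 0 that rose, with a median of -0.40. Alp9 and Alp10 are adjacent genes. Alp10 measured 456, 310.0, 399 and 387 CPM in mated and 1742, 1616, 2185 and 1785 CPM in unmated libraries. The groups were far apart, with a log2 change of -2.24 (SE 0.16, adjusted p = 0.000171), and Alp9 changed by -2.12 (SE 0.15, adjusted p = 0.000182). Alp2 was low in abundance and fell from 83.5, 101, 64.8 and 57.8 CPM in unmated to 11.5, 7.43, 22.96 and 7.06 CPM in mated libraries, with a log2 change of -2.65 (SE 0.41, adjusted p = 0.0113). CNT2, a transporter of nucleosides, fell with a log2 change of -2.07 (SE 0.30, adjusted p = 0.00517).

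**Figure D3:**
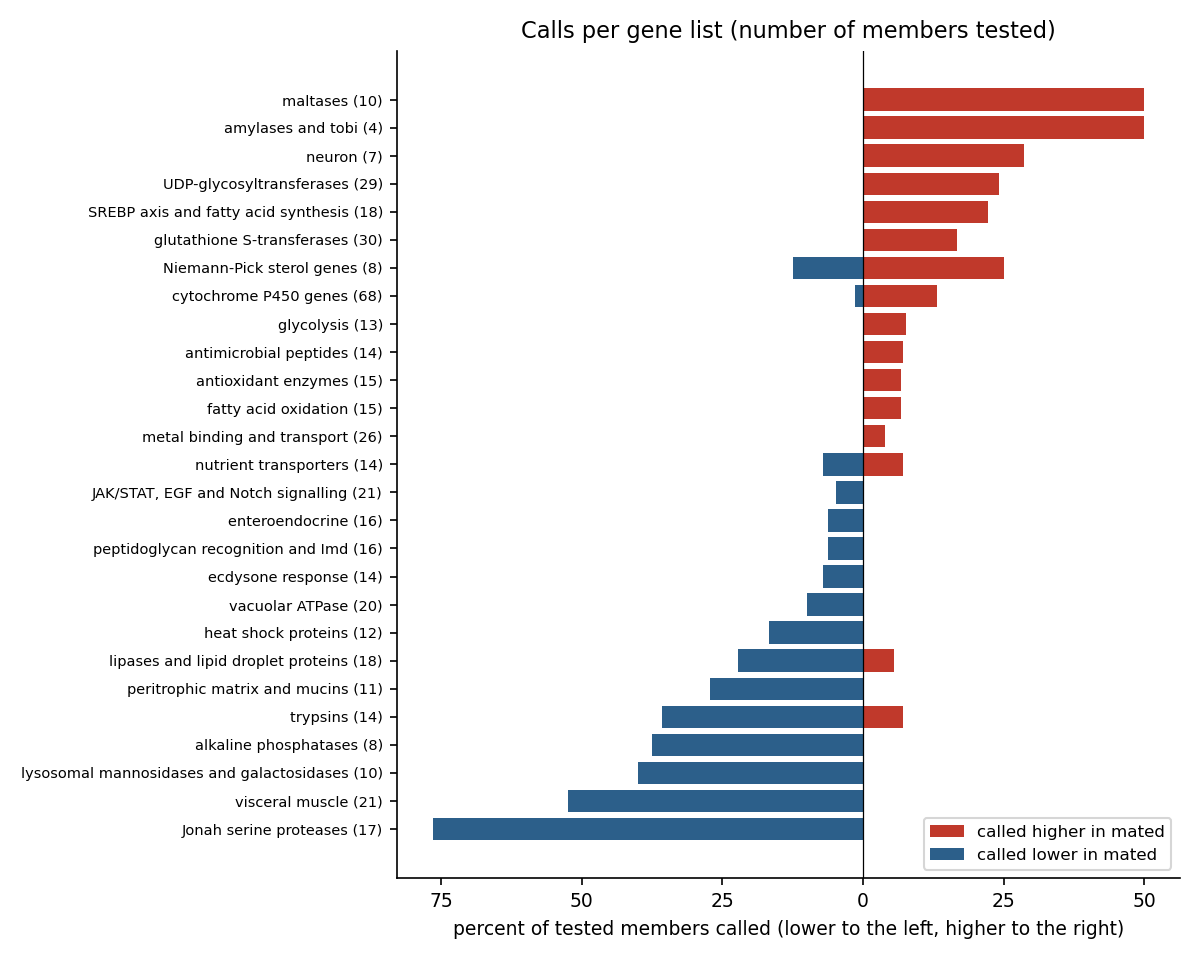
Percent of the tested members of each gene list called higher (right, red) or lower (left, blue) in mated guts, with the number tested in parentheses. Lists without a call are left out, as are the 2 lists put together after the values were seen. The lists shown were themselves chosen with earlier results of these data known. Against 2.23% higher and 2.03% lower over all tested genes, Jonah proteases had 13 of 17 called lower and maltases 5 of 10 called higher.

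Genes of sterol uptake and fat storage changed singly rather than as whole lists. The Niemann-Pick genes bind and carry sterols, and of 8 tested 2 rose and 1 fell. Npc1b, needed for the uptake of dietary sterol in the fly midgut, stood at 1097, 1716, 1567 and 1303 CPM in mated and 600.3, 629.7, 425 and 446 CPM in unmated libraries. All mated values were above all unmated values, with a log2 change of 1.44 (SE 0.19, adjusted p = 0.00256). Npc2e rose with a log2 change of 1.75 (SE 0.29, adjusted p = 0.0106). The fall of Npc2f was -0.54 (SE 0.11, adjusted p = 0.0195). It was lost without mated library 1, 2 or 4 or unmated library 1 or 3, where adjusted p-values were 0.0531, 0.0562, 0.0713, 0.0601 and 0.0725.

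Among lipases and lipid droplet proteins, 4 of 18 fell and 1 rose, with a median of -0.02. The gene brummer (bmm), the fly counterpart of adipose triglyceride lipase, measured 131, 75.9, 123 and 127 CPM in mated and 252, 396, 369 and 366 CPM in unmated libraries. Both groups had 1 low library and still did not overlap, with a log2 change of -1.60 (SE 0.20, adjusted p = 0.00227). The droplet coat protein gene Lsd-1 fell with a log2 change of -1.87 (SE 0.32, adjusted p = 0.0134), the predicted lipase gene CG17192 with -1.60 (adjusted p = 0.00515) and Lip4 with -1.20 (adjusted p = 0.00242). The single rise was Lip3, a lipase, with raw counts of 42, 277, 424 and 76 in mated and 2, 3, 1 and 4 in unmated libraries. Its call was lost without any 1 of unmated libraries 1 to 4, with adjusted p-values of 0.0619, 0.0624, 0.0814 and 0.0787. Without mated library 3, 2 genes of the list rose.

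Of 18 genes of the SREBP axis and fatty acid synthesis, 4 rose and 0 fell, with a median of 0.06. Without adjustment 7 reached a p under 0.05 upward and 0 downward, and DESeq2 called 5 and 0. The malic enzyme gene Men, whose product makes NADPH, stood at 286, 309, 257 and 277 CPM in mated and 158, 175, 162 and 173 CPM in unmated libraries. The groups were tight and apart, with a log2 change of 0.76 (SE 0.10, adjusted p = 0.00256). The other 3 were Agpat2, mdy and ACC, which encode an acyltransferase, a diacylglycerol acyltransferase and acetyl-CoA carboxylase. Leaving out mated library 1 or unmated library 1, 2 or 4 gave 2 rises, and leaving out mated library 4 or unmated library 3 gave 1.

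Among detoxifying enzymes most calls were rises. UDP-glycosyltransferases, which attach sugars to toxins and hormones, had 7 of 29 members that rose and 0 that fell, with a median of 0.31. DESeq2 called 7 and 0, and 9 higher and 0 lower members had an unadjusted p below 0.05. Ugt35C1 measured 324, 383, 224 and 272 CPM in mated and 121, 97.5, 67.2 and 84.3 CPM in unmated libraries. The lowest mated library was clearly above the highest unmated one, with a log2 change of 1.70 (SE 0.21, adjusted p = 0.00227). Ugt303A1 changed by 1.03 (SE 0.15, adjusted p = 0.00387). The count of 7 became 4 when mated library 1 or 4 was left out and 3 when unmated library 3 or 4 was.

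Cytochrome P450 genes, which oxidise toxins, steroids and fatty acids, had 9 of 68 members that rose and 1 that fell, with a median of 0.26. Cyp28d1 stood at 335, 214, 304 and 364 CPM in mated and 59.7, 74.6, 70.1 and 73.2 CPM in unmated libraries. The unmated libraries were nearly equal, the mated ones were all far higher, and the change was 2.13 (SE 0.17, adjusted p = 0.000182). Cyp6t1 was the member that fell, by -0.66 (SE 0.11, adjusted p = 0.00934). The number of rises was 5 with upper quartile scaling and was 5, 2, 1 and 1 without mated library 2, mated library 4, unmated library 3 and unmated library 4. Glutathione S-transferases had 5 of 30 members that rose and 0 that fell, with a median of 0.16. Unadjusted p-values under 0.05 were found for 10 higher and 2 lower members, and DESeq2 called 6 and 2. GstT4 had 759.5, 914, 506 and 705 CPM in mated and 335, 246, 242 and 218 CPM in unmated libraries and changed by 1.47 (SE 0.20, adjusted p = 0.00282) without overlap. With upper quartile scaling 1 of the 30 rose. Leaving out mated libraries 2 to 4 in turn gave 3, 3 and 1, and without unmated libraries 1 to 4 it was 2, 3, 1 and 1. Without mated library 3, 1 member fell.

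**Figure D4:**
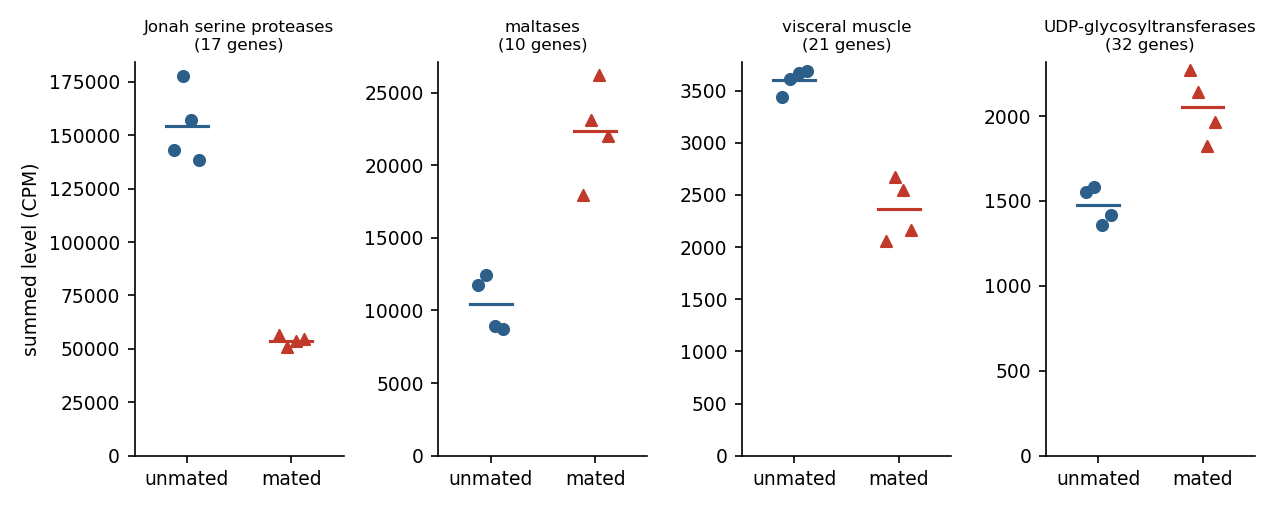
Summed level in CPM of all members in the count table of 4 gene lists, 1 point per library, with unmated libraries as circles, mated libraries as triangles and the group mean as a bar. Each vertical axis starts at 0. The groups do not overlap in any of the 4 panels, with Jonah proteases and visceral muscle lower and maltases and UDP-glycosyltransferases higher in mated guts.

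Many contractile genes of the visceral muscle, the layer that moves the gut, fell. Of 21 tested, 11 fell and 0 rose, with a median of -0.55, and 14 did not overlap between groups. Before adjustment p was under 0.05 for 13 lower and 0 higher members, and DESeq2 called these numbers too. The myosin light chain gene Mlc2 stood at 195, 216, 195 and 198 CPM in mated and 378, 452, 366 and 349 CPM in unmated libraries. All mated libraries were alike and well below every unmated one, with a log2 change of -0.94 (SE 0.11, adjusted p = 0.00169). The troponin genes TpnC47D and wupA changed by -1.50 (SE 0.16, adjusted p = 0.00101) and -0.78 (SE 0.10, adjusted p = 0.00227). The muscle actins Act87E and Act57B fell with -1.80 (adjusted p = 0.00269) and -1.26 (adjusted p = 0.00471), and reads can be shared between these near-identical copies. Act57B also shares exon positions with another gene on the same strand, and Act87E with a gene on the other strand. Summed muscle levels were 2059 to 2669 CPM in mated and 3441 to 3692 CPM in unmated libraries. The 11 that fell have exon lengths of 791 to 2812 bases, and the 10 that were not called have 3933 to 69810 bases. Over all genes, the median log2 fold change was -0.04 in the shortest 2200 by exon length and 0.11 in the longest 2199. In the shortest 2200 genes 40 were called higher and 73 lower, and in the longest 2199 it was 39 and 23. The part of transcript length in the muscle result and in the other calls was not tested.

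Few markers of other gut cells were called. None of the 12 progenitor markers was called, with a median of -0.03. Of these, 1 was higher and 0 lower by unadjusted p, and DESeq2 called 0 and 0. The driver gene esg read 15.7, 26.6, 24.7 and 18.4 CPM in mated and 28.5, 15.9, 24.7 and 23.01 CPM in unmated libraries. These overlapped (adjusted p = 0.856), and its log2 fold change of -0.11 turned to 0.013 without mated library 1 and to 0.0020 without unmated library 1. Of 16 enteroendocrine genes, 1 fell. This was the peptide hormone gene Dh31, at 8.63, 9.91, 8.28 and 10.1 CPM in mated and 13.6, 13.9, 13.2 and 14.3 CPM in unmated libraries. Its change was -0.57 (SE 0.11, adjusted p = 0.0144), with an adjusted p of 0.0546 without unmated library 4, while 2 genes of the list fell without mated library 1. Of 7 neuronal genes, 2 rose, the synaptic gene cpx with 1.23 (SE 0.22, adjusted p = 0.0118) and Appl with 0.71 (SE 0.13, adjusted p = 0.0149). The adjusted p of Appl was 0.0515, 0.0647 and 0.0578 without mated library 4, unmated library 3 and unmated library 4. Summed neuronal markers were 32.9 to 37.8 CPM in mated and 19.7 to 29.4 CPM in unmated libraries.

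Summed markers of tissues outside the gut overlapped between the groups. Haemocyte markers were at 231 to 338 CPM in mated and 215 to 341 CPM in unmated libraries, fat body markers 865 to 1641 and 764 to 1488, ovary markers 648 to 946 and 672 to 781, and tracheal markers 23.1 to 30.7 and 22.9 to 27.99. Their members read mostly higher in mated guts. The log2 fold change was above 0 for 11 of 12 haemocyte genes, 6 of 9 fat body genes, 6 of 6 ovary genes and 4 of 6 tracheal genes tested, with medians of 0.56, 0.38, 0.36 and 0.05 against 0.02 over all genes tested. By edgeR none of these 4 lists had a called gene. By unadjusted p, 2 haemocyte genes were higher and no other member of the 4 lists passed, and DESeq2, which was run without the filter on low counts, called 1 ovary gene lower. Of 6 genes of the male reproductive tract, 1 is in the count table, with 0.152 to 0.430 CPM in mated and 0.353 to 0.704 CPM in unmated libraries, too low to be tested.

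Stress, hormone and growth genes gave few calls. The small heat shock gene l(2)efl stood at 38.7, 41.8, 46.2 and 43.8 CPM in mated and 129, 166, 124 and 112 CPM in unmated libraries. The groups were far apart, with a log2 change of -1.64 (SE 0.13, adjusted p = 0.000182), and the cochaperone gene stv changed by -0.86 (SE 0.12, adjusted p = 0.00348). These were the 2 of 12 heat shock genes that fell, with a list median of -1.58, and 5 were lower both by unadjusted p and by DESeq2. Their summed level of 489.8 to 1225 CPM in mated libraries overlapped the 1001 to 1759.9 CPM of unmated libraries, with mated library 3 the highest of its group. Of 14 genes of the ecdysone response, 1 fell, MsrA (Eip71CD), which repairs oxidised methionine and is induced by ecdysone. MsrA had 44.7, 39.1, 43.2 and 47.6 CPM in mated and 148, 176, 142 and 146 CPM in unmated libraries. Its replicates were close together, and it had the smallest adjusted p for mating of the genes named here, with a log2 change of -1.81 (SE 0.11, adjusted p = 0.000141). The receptor gene EcR itself read 14.9, 15.2, 13.6 and 10.8 CPM in mated and 14.3, 9.93, 13.8 and 12.02 CPM in unmated libraries, overlapping, with an adjusted p of 0.749. SPR, which encodes the receptor of the male sex peptide, had 11, 11, 5 and 10 counts in mated and 4, 3, 1 and 5 counts in unmated libraries, too few to be tested.

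By edgeR none of 29 cell cycle genes, 17 ribosome biogenesis genes, 14 insulin and TOR regulators, 6 juvenile hormone genes and 84 cytosolic ribosomal proteins was called. Unadjusted p-values under 0.05 were reached upward and downward by 1 and 0, 0 and 2, 2 and 1, 1 and 1, and 9 and 0 members. Over all 8833 genes tested these numbers were 807 and 648. DESeq2 called 1 insulin and TOR regulator higher and no other gene of these 5 lists. Of the ribosomal protein genes, 82 of 84 had a positive log2 fold change with a median of 0.28, but their summed levels of 80671 to 133944 CPM in mated and 78573 to 102314 CPM in unmated libraries overlapped. Among the 68 genes of the respiratory chain, 64 were negative with a median of -0.14, and 0 were called by edgeR and 3 lower by DESeq2, with 1 higher and 8 lower by unadjusted p.

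The list of the peritrophic matrix, a chitin sheath around the food, and of mucins had 3 of 11 genes that fell and 0 that rose. Its median was -0.81, and 1 rose without mated library 1, with DESeq2 or with the replicate block. Summed levels of 1023 to 3188 CPM in mated and 878 to 4189 CPM in unmated libraries overlapped. The mucin gene Muc68E fell with an adjusted p of 0.0457. Its call was lost without any library except unmated library 1, with adjusted p-values of 0.0593 to 0.110. Peritrophin-15a and Peritrophin-15b changed by -0.82 (SE 0.11, adjusted p = 0.00269) and -0.93 (SE 0.12, adjusted p = 0.00267). In the fit together with Actin control guts, both calls were lost, with adjusted p-values of 0.161 and 0.0911, and 1 gene of the list fell. Of 14 nutrient transporters 1 fell and 1 rose. The cationic amino acid transporter gene slif measured 166, 118, 137 and 132 CPM in mated and 214, 232, 253 and 225 CPM in unmated libraries, without overlap, with a log2 change of -0.74 (SE 0.12, adjusted p = 0.00822). The rise, of the predicted amino acid transporter gene CG1139, was lost without mated library 2 or 4 or unmated library 2, 3 or 4, with adjusted p-values of 0.0637, 0.0758, 0.0730, 0.0889 and 0.0906, and 2 members fell without unmated library 2. The zinc transporter gene Zip42C.1 rose by 1.31 (SE 0.19, adjusted p = 0.00464), the only call among 26 genes of metal binding and transport. In the antimicrobial peptide list 1 of 14 genes rose, AttC, at 3.12, 3.58, 1.78 and 1.85 CPM in mated and 0.734, 0.58, 0.47 and 0.517 CPM in unmated libraries. In the fit together with Actin control guts its adjusted p was 0.146.

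The vacuolar ATPase, the proton pump that acidifies lysosomes and the copper cell region, had 18 of 20 subunit genes with a negative log2 fold change and a median of -0.27. The libraries of 11 lay below without overlap. Of the 20, 2 fell, VhaAC39-2 with -1.38 (SE 0.30, adjusted p = 0.0287) and Vha100-5 with -0.67 (SE 0.15, adjusted p = 0.0325). VhaAC39-2 was low, at 0.762 to 1.99 CPM in mated and 3.43 to 4.84 CPM in unmated libraries, while Vha100-5 had means of 697 and 1109 CPM. DESeq2 called 8 lower, and 10 were lower by unadjusted p. The count of 2 was 1 without mated library 1 or 2 and 0 without mated library 4 or any unmated library. Summed levels were 15409 to 17404 CPM in mated and 17751 to 21186 CPM in unmated libraries.

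Single calls were made in the lists of glycolysis (Pgi, higher, of 13), fatty acid oxidation (whd, higher, of 15), antioxidant enzymes (Cat, higher, of 15), peptidoglycan recognition and Imd signalling (PGRP-SC2, lower, of 16) and JAK/STAT, EGF and Notch signalling (E(spl)m6-BFM, lower, of 21). Apart from E(spl)m6-BFM, each of these calls was lost when any of several single libraries was left out, with adjusted p-values of up to 0.122 for Pgi, 0.168 for whd, 0.116 for Cat and 0.117 for PGRP-SC2. E(spl)m6-BFM, a small gene of the Notch response, stood at 0.0391, 0.0381, 0.193 and 0.112 CPM in mated and 2.05, 1.01, 6.12 and 1.27 CPM in unmated libraries. Its mated levels were thus near the floor, and with a minimum count of 50 no gene of its list fell. By edgeR none of 12 enterocyte markers, 7 lysozymes, 74 mitochondrial ribosomal proteins, 32 proteasome subunits and 13 genes of the unfolded protein response was called. By unadjusted p these lists had 0, 0, 1, 1 and 0 higher and 2, 2, 0, 0 and 0 lower members, and DESeq2 called 1 enterocyte marker and 2 lysozymes lower and no other. Of 10 genes of the JNK pathway and cell death, 10 regional transcription factors, 6 copper cell markers and 10 Malpighian tubule markers, none was called by edgeR or DESeq2. By unadjusted p they had 0, 0, 1 and 1 higher and 2, 1, 0 and 0 lower members.

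Several genes with the largest changes are less studied. CG15263 had 30.4, 37.2, 52.2 and 52.6 CPM in mated and 3.67, 1.81, 1.71 and 1.55 CPM in unmated libraries. It was near absent in unmated guts and changed by 4.33 (SE 0.31, adjusted p = 0.000182). CG34040 rose from 31.5, 14.1, 6.12 and 12.2 to 93.8, 304, 335 and 232 CPM. Its groups were apart but uneven, and its adjusted p of 0.0144 became 0.0562 without unmated library 2 and 0.0679 without unmated library 4. The regucalcin-like gene smp-30 and the genes CG31636 and CG17906 rose with log2 fold changes of 1.88, 1.85 and 1.94 and adjusted p-values of 0.00256, 0.000734 and 0.00478. On the other side, CG31259 and CG9864 fell by -2.14 (SE 0.26, adjusted p = 0.00227) and -2.13 (SE 0.30, adjusted p = 0.00466). Both were below every unmated library in all 4 mated libraries.

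Called genes of 1 direction also lay next to each other. There were 9 runs of at least 3 neighbouring tested genes called in the same direction. The runs that fell were the 3 Jon25B genes at 2L:4949941-4955144, the trypsin genes thetaTry, alphaTry, epsilonTry and betaTry at 2R:11341714-11347395, the nearby CG30031, CG30025 and deltaTry at 2R:11350811-11356128, and a stretch of 5 genes from yip7 to Jon65Aiii at 3L:6035216-6051690. Runs that rose included Mal-A6, Mal-A7 and Mal-A8 at 2R:8465158-8473961, Ugt304A1, Ugt303A1 and CG18577 at 3R:11173441-11197285, and CG9512, fiz and Eo, which encode oxidoreductases, at X:14901844-14918800. Positions are those of the BDGP6.54 annotation. Some calls in these runs rested on single libraries. Jon25Biii lost its call without any of the libraries except unmated library 4, with adjusted p-values of 0.0606 to 0.141. For alphaTry they were 0.0510, 0.0542 and 0.0594 without mated library 2, mated library 4 and unmated library 3, and for Mal-A6 0.0728 and 0.0518 without unmated library 3 and unmated library 4. Neighbours of 1 family share sequence, and these runs are a description without a test.

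The response of esg-Gal4 whole guts differed from that of Actin control guts and of sorted progenitors. The difference of mating effects was tested as an interaction. It was called for 748 genes, 8.12% of 9209 tested, against Actin control, with 457 higher (4.96%) and 291 lower (3.16%) in whole guts. With upper quartile scaling the higher ones were 49.1% of the calls in place of 61.1%. The higher count was 254 without Actin control mated library 2 and 303 without Actin control unmated library 2, and the lower count was 470 without whole gut mated library 3. Against progenitors the difference was called for 2008 genes, 21.3% of 9448 tested, with 1152 higher (12.2%) and 856 lower (9.06%). The lower count was 558, 550, 570 and 493 without whole gut mated library 2, progenitor mated library 4, progenitor unmated library 1 and progenitor unmated library 4.

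Of the 376 genes called in whole guts, 297 (79.0%) had the opposite sign in Actin control guts, against 54.6% of all genes tested in both. For 296 of the 376 the difference itself was called, against 738 of the 8824 genes tested in both. The 376 were chosen by the same whole gut libraries that enter the difference, so the choice itself raises their share. Among genes that fell in whole guts the median log2 fold change was -0.97 there and 0.23 in Actin control guts, and among those that rose it was 0.87 and -0.29. These 3 kinds of material share no libraries. In progenitors 207 of 375 (55.2%) had the opposite sign, against 53.5% of all genes, made up of 139 of 196 that rose and 68 of 179 that fell in whole guts. Of the genes called in both whole guts and progenitors, 122 had opposite signs and 46 the same sign. Those that rose in whole guts made up 98 of the opposite and 14 of the same signs, and those that fell 24 and 32. Cyp28d1 changed by 2.13 in whole guts, -1.999 in Actin control guts (adjusted p = 2.56e-06) and -2.19 in progenitors (adjusted p = 0.000158). The difference between whole guts and Actin control guts was 4.13 (SE 0.20, adjusted p = 9.59e-09). For tobi the same 3 values were 2.19, -2.40 and -4.32, and the difference against Actin control was 4.59 (SE 0.54, adjusted p = 0.00015). Alp10, which fell by 2.24 in whole guts, rose by 0.88 in Actin control guts (adjusted p = 0.0044) and by 1.49 in progenitors (adjusted p = 0.0017). Jon65Aiv differed by -2.14 (SE 0.43, adjusted p = 0.0052) against Actin control and by -2.36 (SE 0.30, adjusted p = 0.000183) against progenitors. Its own log2 fold change in Actin control guts was 0.46, which did not pass (adjusted p = 0.474). Npc1b rose by 1.44 in whole guts, read 0.10 in Actin control guts and -2.73 in progenitors, and differed from Actin control by 1.33 (SE 0.24, adjusted p = 0.00227). Mlc2 read -0.01 in Actin control guts and differed by -0.94 (SE 0.24, adjusted p = 0.0252), while against progenitors its difference was -0.63 (SE 0.35, adjusted p = 0.202) and did not pass. The genes set out in this comparison were chosen after their values were seen. Their levels in the sorted progenitor libraries are not given here, and which cells their RNA there came from was not tested.

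**Figure D5:**
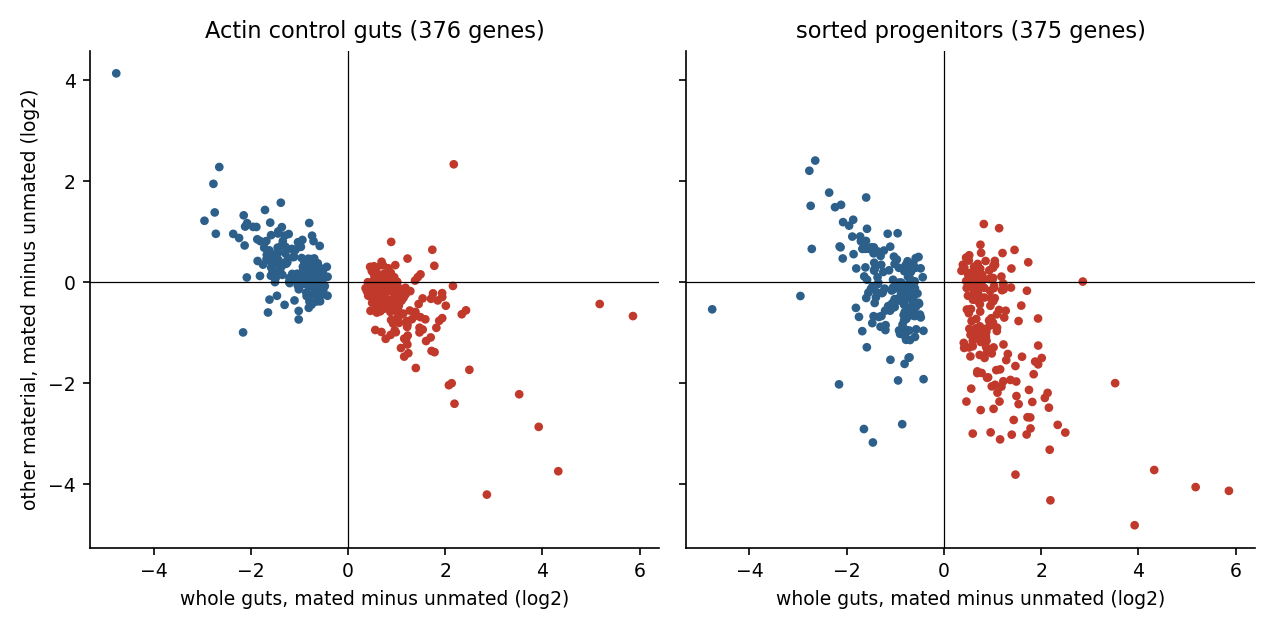
Mated minus unmated log2 fold change of genes called in esg-Gal4 whole guts (horizontal axis) and of the same genes in Actin control guts (left, 376 genes) and sorted progenitors (right, 375 genes). Blue points fell and red points rose in whole guts. In Actin control guts 297 of 376 points lie in the quadrants of opposite sign, and in progenitors 207 of 375.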

How the data were processed

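RNA was poly(A)-selected and made into libraries with a directional kit, per the labels' protocols. The authors deposited counts per gene. The submitters' processing notes name STAR, HTSeq and DESeq2 and the builds BDGP6 and dm6, without versions. The sources used here give neither the strand setting nor the handling of reads shared between copies, so genes with overlapping exons or near-identical copies are uncertain. The whole gut table holds 11136 rows, of which 501 transposable element rows were left out. The 15 Myo1A samples were not analysed here, because the 8 columns of the file named for them are identical to the whole gut columns. In the files, 24 further columns were not used here.

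The analysis used R 4.3.3 and edgeR 4.0.16 with filterByExpr (minimum count 10, minimum total count 15), trimmed mean of M values scaling and robust quasi-likelihood fits. The SE of a log2 fold change was derived from its F statistic, so it is not independent of the p-value. The difference of mating effects was tested as an interaction in a joint fit of 16 libraries. Precision is limited by 4 libraries a group. Coordinates come from the BDGP6.54 annotation, matched by identifier, which lacks 36 of the 8833 tested genes. The procedure was tested on simulated counts. For mating, 17.9%, 68.7% and 83.3% of 1.5-, 2- and 3-fold changes were recovered, and 4.24% of calls were false. For the difference against Actin control, 5.97%, 47.8% and 71.2% were recovered, and 7.78% of calls were false. Against progenitors these values were 10.4%, 40.3%, 65.2% and 1.28%.

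The libraries, the 48 gene lists and the rules were chosen with earlier results of these data known, and 2 lists and the 13 genes compared across materials after their values were seen. Named were, among called genes without overlap and with a mean log2 CPM of 3 or more, the 12 with the largest rise and the 12 with the largest fall, the 6 called genes with the highest mean CPM in each direction, the 3 called members of each list with the smallest adjusted p, any member of leading lists, EcR, SPR and esg. A selection is printed. Alternatives were upper quartile scaling, DESeq2 1.42.0 and its size factors alone, a minimum count of 50 or no filter, a replicate block, a fit together with Actin control and leaving out each library.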

Additional observations from a re-analysis of the deposited data

Results flagged for a closer look

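In 9 of 212 groups of 4 values, 1 library lay far from the other libraries of its group, and chance gives about 1 in 20. CG15263 was at 3.67 CPM in unmated library 1 and at most 1.81 CPM in the other unmated libraries. CG9512 was at 114 CPM in mated library 1, next to 87.3 CPM. LManVI was at 2477 CPM in mated library 3, next to 1524 CPM, and the summed lysosomal mannosidases and galactosidases were at 5889 CPM in the same library, next to 4417 CPM. The lipase gene bmm was at 75.9 CPM in mated library 2, below 123 CPM. The carnitine palmitoyltransferase gene whd was at 339 CPM in mated library 3, below 745 CPM. Pgi, which encodes a glycolytic isomerase, was at 123 CPM in unmated library 2, next to 110.3 CPM. Mlc2 was at 216 CPM and ACC at 223 CPM in mated library 2, next to 198 and 202 CPM.

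Mating effects differed between esg-Gal4 whole guts and Actin control guts for 748 genes and between whole guts and progenitors for 2008 genes, by the interaction test. The log2 differences against Actin control were -4.72 for Jon25Bii, -2.14 for Jon65Aiv, -1.88 for yip7, -3.13 for Alp10 and -0.94 for Mlc2. They were 4.59 for tobi, 5.61 for Amyrel, 3.09 for Mal-A7, 4.13 for Cyp28d1, 2.79 for Ugt35C1, 7.06 for Try29F, 8.06 for CG15263 and 1.33 for Npc1b. Against progenitors the log2 differences were -5.00 for Jon25Bii, -2.36 for Jon65Aiv, -1.65 for yip7 and -3.75 for Alp10. In the other direction they were 6.49 for tobi, 9.22 for Amyrel, 4.39 for Mal-A7, 4.30 for Cyp28d1, 4.69 for Ugt35C1, 2.83 for Try29F, 8.03 for CG15263 and 4.14 for Npc1b. For Try29F, whose own log2 fold changes were 2.86 in whole guts, -4.20 in Actin control guts and 0.02 in progenitors, the sign turned between the whole gut experiments.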

How the results depend on the processing

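For mating in whole guts, DESeq2 called 328 genes higher and 346 lower, and the fit together with Actin control 329 and 280. Leaving out single libraries gave 74 to 274 genes higher and 107 to 236 lower. Of the maltases, 8 rose in the fit together with Actin control and 3 to 6 with single libraries left out. The difference against Actin control gave 254 to 685 genes higher and 203 to 470 lower, and that against progenitors 830 to 1338 higher and 493 to 1204 lower, with single libraries left out. The log2 fold change of esg ranged from -0.26 to 0.013 and that of Amy-p from -0.14 to 0.26 over all settings, and neither was called in any. The cause of these shifts was not tested. Of the named genes, 10 lost their call in the fit together with Actin control, 7 with upper quartile scaling, 3 without a filter, 2 with DESeq2's size factors and 17 with the replicate block. Jon65Aiv, Alp10, Mal-A1, tobi, Npc1b, Cyp28d1 and Mlc2 kept their direction and call in all 15 alternatives. Same-numbered libraries had correlated deviations of -0.09, -0.04, 0.27 and 0.28 for numbers 1 to 4, so the numbers were not taken as pairs. Mated libraries 3 and 4 correlated best with the unmated library of their own number, and mated libraries 1 and 2 did not. With the replicate block, 122 genes were higher, 3 maltases rose and 262 genes were called in all, 235 of them also without it. With 4 libraries a group, depth limits mainly genes with few counts, such as SPR.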

Other observations

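Enzymes that store and convert sugars also differed between mated and unmated guts. They form 2 lists that were put together after the values were seen and are given without a test of the list. Of 19 genes of glycogen and galactose conversion, 8 rose and 0 fell, with a median change of 0.49 on the log2 scale against 0.02 over all tested genes. At an unadjusted p under 0.05, 11 were higher and 0 lower, and DESeq2 called 9 and 0. The count was 5 without mated library 4 and 4 without unmated library 3 or unmated library 4. Their summed level was 2420 to 2638 CPM in mated and 1760.5 to 2039 CPM in unmated libraries. GlyP, the glycogen phosphorylase gene, stood at 176, 179, 141 and 142 CPM in mated and 93.2, 91.01, 95.6 and 94.7 CPM in unmated libraries. The unmated libraries were nearly equal and all below the mated ones, with a log2 change of 0.77 (SE 0.11, adjusted p = 0.00387). AGBE, the glycogen branching enzyme gene, rose with a log2 change of 0.77 (SE 0.10, adjusted p = 0.00269). CG32444, a predicted aldose epimerase gene, stood at 118, 152, 155 and 139 CPM in mated and 26.9, 40.6, 18.3 and 14.4 CPM in unmated libraries, with a log2 change of 2.50 (SE 0.30, adjusted p = 0.00268). The gluconeogenic gene fbp, for fructose-1,6-bisphosphatase, rose by 1.22 (SE 0.17, adjusted p = 0.00364).

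Of 7 genes of the pentose phosphate pathway, which yields NADPH and ribose, 3 rose and 0 fell, with a median of 0.37. At an unadjusted p under 0.05, 4 were higher and 0 lower, and DESeq2 called 3 and 0. CG8036, a predicted transketolase gene, stood at 563, 457, 422 and 444 CPM in mated and 258, 273, 261 and 269 CPM in unmated libraries. The groups did not overlap, with a log2 change of 0.83 (SE 0.11, adjusted p = 0.00328). Rpi and Taldo changed by 0.64 (SE 0.10, adjusted p = 0.0068) and 0.69 (SE 0.15, adjusted p = 0.0287). The oxidative steps did not pass, with adjusted p-values of 0.727 for Zw and 0.582 for Pgd.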
